A study of Mus musculus with 9 samples.

Results

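Collagen VI is a beaded microfibril of the extracellular matrix, and Col6a1, Col6a2 and Col6a3 encode its classical chains, α1, α2 and α3. These 3 genes, of 15768 gene symbols with values, were followed in SCC1 and SCC2, which are subclones grown from single cells of LLC1 by limiting dilution, and in the parental mouse Lewis lung carcinoma line LLC1. The genes were selected by name because of their levels in these same libraries, so the levels, changes and chain ratios given for them are descriptions without a test. All 3 lines carried the label of wild-type genotype, were untreated and grew in the same serum-containing medium. SCC1 and SCC2 are 1 clone each and were kept for 5 to 8 passages, so a difference from LLC1 is a difference between a clone and the line it was taken from. Each line had 3 RNA-seq libraries. No label says that these came from separate cultures, so spreads and p-values cover only the variation between these libraries, which may be technical.

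The α1, α2 and α3 chains fold together into a heterotrimeric monomer with a short triple helix between globular domains. Monomers are joined inside the cell into dimers and tetramers, which are secreted and link end to end. The α3 chain is the longest, and its C-terminal fragment endotrophin is released after secretion. In mice, related chains encoded by Col6a4, Col6a5 and Col6a6 can take the place of α3. Collagen VI surrounds muscle, fat and lung cells, defects in it cause muscle disease in humans, and in tumours it is made by cancer cells and by stromal cells.

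Col6a1 and Col6a2 are neighbours on mouse chromosome 10, both on the minus strand, with 85162 bases between the end of Col6a2 (chr10:76595756-76623630) and the start of Col6a1 (chr10:76708792-76726044). Col6a3 lies on the minus strand of chromosome 1 (chr1:90766860-90844001). These positions and the sequences that follow are those of RefSeq on GRCm38.p6. The bases before the genes are shown because the 3 transcripts were ordered alike over the lines, with Col6a1 and Col6a2 on chromosome 10 and Col6a3 on chromosome 1. The cause of that order was not tested. Of each upstream stretch only the bases beyond the outermost start in RefSeq or GENCODE M21 are printed, which leaves 126 bases for Col6a1 (chr10:76726169-76726294), 250 for Col6a2 (chr10:76623631-76623880) and 220 for Col6a3 (chr1:90844002-90844221), 5′ to 3′ on the minus strand. Capitals mark matches on either strand to the TATA box TATAAA, to the CCAAT box, to the GC box GGGCGG, to the AP-1 consensus TGACTCA and to the C-rich run CCCTCCC, which was added after the sequences had been read.
Col6a1: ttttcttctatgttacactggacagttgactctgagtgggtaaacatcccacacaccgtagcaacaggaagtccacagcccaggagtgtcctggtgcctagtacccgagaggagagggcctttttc
Col6a2: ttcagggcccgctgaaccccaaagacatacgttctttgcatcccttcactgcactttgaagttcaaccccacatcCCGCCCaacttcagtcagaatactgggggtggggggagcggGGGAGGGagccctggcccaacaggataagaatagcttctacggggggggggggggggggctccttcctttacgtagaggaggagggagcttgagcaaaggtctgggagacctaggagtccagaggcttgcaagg
Col6a3: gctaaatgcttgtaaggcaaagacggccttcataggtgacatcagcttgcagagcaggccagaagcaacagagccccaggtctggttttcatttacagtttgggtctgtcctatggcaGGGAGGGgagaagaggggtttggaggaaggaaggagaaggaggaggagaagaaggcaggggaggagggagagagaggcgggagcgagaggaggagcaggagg
The C-rich run was found 1 time in the Col6a2 window and 1 time in the Col6a3 window, in both as its reverse complement. Among 27025 promoter windows, 19.1% held it over 250 bases and 16.5% over 220 bases. The GC box was found 1 time, on the reverse strand of the Col6a2 window (32.9% of windows of that length hold it). The Col6a1 window held none of the 5 motifs, which windows of 126 bases hold in 2.07% (AP-1 consensus) to 17.0% (CCAAT box) of promoters. Neither the TATA box, nor the CCAAT box, nor the AP-1 consensus had a match in any of the 3. The Col6a1 window begins beyond the outermost start at 76726168, so the bases directly before the RefSeq start at 76726044 were not scanned. The compared windows of 126 and 220 bases were likewise the part of 250 upstream bases farthest from the start. The Col6a3 window is rich in purines on this strand, with 28.6% pyrimidines, against 43.2% for Col6a2 and 50.8% for Col6a1. Such matches describe letters in these windows only.

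The values were FPKM, fragments scaled to gene length and to library size, which allow levels of different genes to be compared per length. Whole fragments worked back from them came to 17094808 to 19398657 per library. At the median gene length a count of 3 fragments corresponded to 0.0459 to 0.0521 FPKM. Spearman correlations across genes were 0.992 to 0.993 between libraries of a line and 0.977 to 0.984 between lines. The epithelial keratin Krt8 had means of 155 FPKM in SCC1, 75.3 FPKM in SCC2 and 113 FPKM in LLC1, and Krt18 had means of 295 FPKM in SCC1, 157 FPKM in SCC2 and 223 FPKM in LLC1. Means of the lung epithelial markers Nkx2-1, Sftpc and Foxj1, of the epithelial cadherin Cdh1, of the endothelial markers Pecam1, Cdh5 and Kdr, and of the leukocyte marker Csf1r were at or under 0.0356 FPKM in every line. Among fibroblast markers Fap was at 0 to 0.0136 FPKM, and Col1a1 and Col1a2 had line means of at most 0.461 FPKM. Others of that list were present, with the highest line means at 699 FPKM for Col3a1 (SCC2), 29.8 FPKM for Dpt (SCC2) and 5.18 FPKM for Pdgfra (LLC1). The leukocyte markers Cd68 and Ly6g were highest in SCC1, with means of 9.14 and 1.14 FPKM. In bulk RNA, fewer cells expressing a gene and less of its RNA per cell cannot be told apart.

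All 3 chains were lowest in SCC1, highest in SCC2 and in between in LLC1. Their levels differed in every line, with Col6a1 above Col6a2 (mean FPKM ratios from 2.69 in SCC2 to 6.35 in SCC1) and Col6a2 far above Col6a3. Col6a1 had 32.1, 29.3 and 30.2 FPKM in the SCC1 libraries, 125, 124 and 123 FPKM in the SCC2 libraries, and 86.2, 86.7 and 86.8 FPKM in the LLC1 libraries. No 2 lines overlapped, and the spread within a line was small, with coefficients of variation of 4.61% in SCC1, 0.697% in SCC2 and 0.385% in LLC1. By mean FPKM Col6a1 ranked 2381st of 15768 symbols in SCC1, 433rd in SCC2 and 659th in LLC1.

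Col6a2 had 4.68, 4.72 and 5.04 FPKM in SCC1, 46.9, 46.0 and 45.6 FPKM in SCC2, and 19.4, 18.1 and 18.6 FPKM in LLC1. It stood near the middle of all symbols in SCC1, where 49.9% lay below it, and among the higher in SCC2 (90.5% below) and in LLC1 (76.1% below). Again the 9 values fell into 3 groups without overlap. Between 2 lines this was common among the 10519 genes with at least 1 FPKM in at least 3 libraries. SCC1 lay below LLC1 without overlap in 31.8% of them and above in 40.4%. SCC2 lay above LLC1 in 36.5% and below in 34.2%. The share of genes separated between all 3 lines was not computed.

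Col6a3 had 0.185, 0.214 and 0.197 FPKM in SCC1, 1.54, 1.58 and 1.53 FPKM in SCC2, and 1.06, 1.24 and 1.20 FPKM in LLC1. These rest on 39, 43 and 39 fragments in SCC1, 302, 320 and 307 in SCC2, and 214, 244 and 222 in LLC1, so the SCC1 level rests on the fewest fragments of the 9 line means. The 121 fragments summed over SCC1 have an exact 95% Poisson interval of 100.4 to 145, which covers counting error only. The gene passed the filter on low values (at least 1 FPKM in at least 3 libraries) through SCC2 and LLC1 alone. Col6a4, the related chain with a value, had 0.00704 FPKM in LLC1 replicate 2 and 0 in the other 8 libraries. With a single value above 0, its number of fragments cannot be worked back and was set to 1, the smallest whole number. A count of 0 allows up to 3 fragments. Col6a5 and Col6a6 were looked for under these symbols, which had no values.

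**Figure D1:**
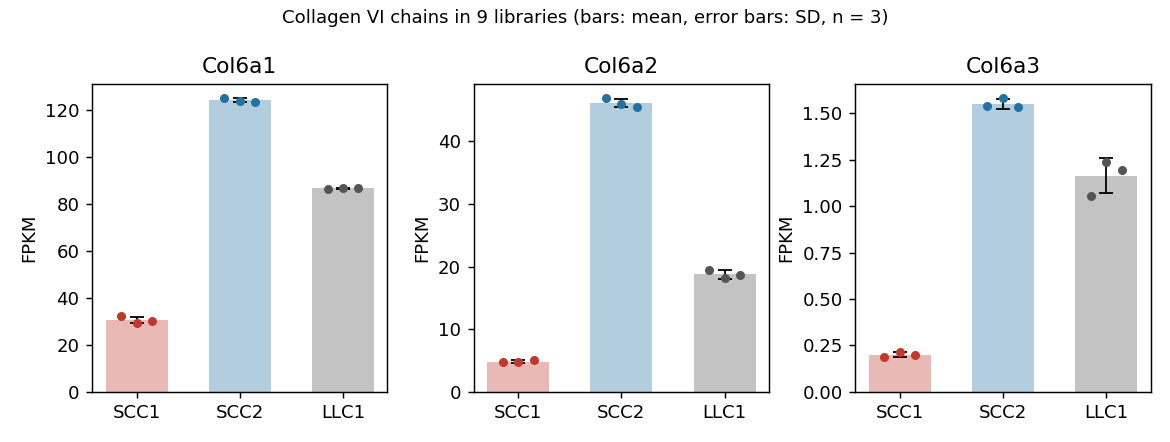
FPKM (linear axes from 0, a separate scale for each gene) of Col6a1, Col6a2 and Col6a3 in the 3 libraries of SCC1, SCC2 and LLC1; points are libraries, bars means and error bars SD. In each panel SCC2 stands highest and SCC1 lowest, with line means of 30.5, 124 and 86.6 FPKM for Col6a1 and of 0.199, 1.55 and 1.16 FPKM for Col6a3 in SCC1, SCC2 and LLC1.

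Comparing SCC1 with LLC1 asks how the collagen VI transcripts of the first clone stand against its parent. Mean Col6a1 was 30.5 ± 1.41 FPKM in SCC1 and 86.6 ± 0.333 FPKM in LLC1 (SD, n = 3 each), a ratio of 0.353. Mean Col6a2 was 4.82 ± 0.194 FPKM in SCC1 and 18.7 ± 0.678 FPKM in LLC1, a ratio of 0.257. Mean Col6a3 was 0.199 ± 0.0144 FPKM in SCC1 and 1.16 ± 0.0953 FPKM in LLC1, a ratio of 0.171. Over all pairs of an SCC1 and an LLC1 library the ratios ran from 0.338 to 0.372 for Col6a1, from 0.241 to 0.278 for Col6a2 and from 0.150 to 0.202 for Col6a3. The lower the level of a chain in LLC1, the smaller was the fraction of it present in SCC1. For all 3 chains the SCC1 libraries lay below those of LLC1 without overlap, as they did for 31.8% of the 10519 genes tested, while for 40.4% they lay above without overlap.

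On the log2(FPKM + 1) scale these differences were -1.47 (SE 0.0277) for Col6a1, -1.76 (SE 0.0343) for Col6a2 and -0.85 (SE 0.0499) for Col6a3. The added 1 compresses the change of Col6a3, whose plain log2 ratio of means was -2.55. Of the 10519 tested genes, 36 had a more negative log2(FPKM + 1) change than Col6a2 and 58 than Col6a1, and 206 than Col6a3.

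SCC2 against LLC1 puts the same question for the second clone, with the same LLC1 libraries. Mean Col6a1 was 124 ± 0.864 FPKM in SCC2 and 86.6 ± 0.333 FPKM in LLC1, a ratio of 1.43. Mean Col6a2 was 46.1 ± 0.676 FPKM in SCC2 and 18.7 ± 0.678 FPKM in LLC1, a ratio of 2.46. Mean Col6a3 was 1.55 ± 0.0257 FPKM in SCC2 and 1.16 ± 0.0953 FPKM in LLC1, a ratio of 1.33. The SCC2 libraries lay above those of LLC1 for all 3 chains, and this held for 36.5% of tested genes, with 34.2% below without overlap. On the log2(FPKM + 1) scale the differences were 0.51, 1.26 and 0.24 for Col6a1, Col6a2 and Col6a3. Col6a2 had the largest change of the chains, with 14 of 10519 tested genes showing a larger positive change, against 261 for Col6a1 and 1707 for Col6a3.

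SCC2 against SCC1 sets the clones side by side. The ratio of means was 4.06 for Col6a1, 9.58 for Col6a2 and 7.81 for Col6a3. On the log2(FPKM + 1) scale, 4 tested genes had a larger positive change than Col6a2 (3.02, SE 0.0343), 20 than Col6a1 (1.99) and 132 than Col6a3 (1.09). The SCC2 libraries lay above those of SCC1 in all 3 chains, and in 38.0% of tested genes, with 39.9% below without overlap.

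Since a monomer takes the chains in equal number, their ratios were computed within each library. Col6a1 to Col6a2 was 6.85, 6.21 and 6.0 in SCC1, 2.67, 2.70 and 2.70 in SCC2, and 4.43, 4.79 and 4.66 in LLC1. The lines did not overlap, with means of 6.35 ± 0.444 in SCC1, 2.69 ± 0.0208 in SCC2 and 4.63 ± 0.182 in LLC1 (SD, n = 3 each). For this pair of chains, the line with the most collagen VI transcript had the ratio nearest to equal, and the line with the least the most uneven. Col6a2 to Col6a3 went otherwise, with means nearest to equal in LLC1 (16.2) and most uneven in SCC2 (29.7).

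Col6a1 to Col6a3 was 173, 137 and 154 in SCC1, 81.2, 78.4 and 80.3 in SCC2, and 81.6, 70.1 and 72.5 in LLC1. SCC1 lay above both other lines, whereas SCC2 and LLC1 overlapped and their means, 80.0 ± 1.42 in SCC2 and 74.8 ± 6.09 in LLC1, differed by less than the SD of LLC1. Col6a2 to Col6a3 was 25.3, 22.1 and 25.6 in SCC1, 30.5, 29.1 and 29.7 in SCC2, and 18.4, 14.6 and 15.6 in LLC1, so that both clones lay above LLC1 and SCC2 above SCC1. Ratios to Col6a3 in SCC1 rest on 39, 43 and 39 Col6a3 fragments. Counting error was not carried into the ratios, so the order of SCC2 over SCC1 only describes these libraries. In every line Col6a3 was the scarcest chain, with 0.560% of the summed FPKM of the 3 chains in SCC1, 0.903% in SCC2 and 1.09% in LLC1. The share of Col6a2 in that sum was 13.6% in SCC1, 26.9% in SCC2 and 17.6% in LLC1.

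**Figure D2:**
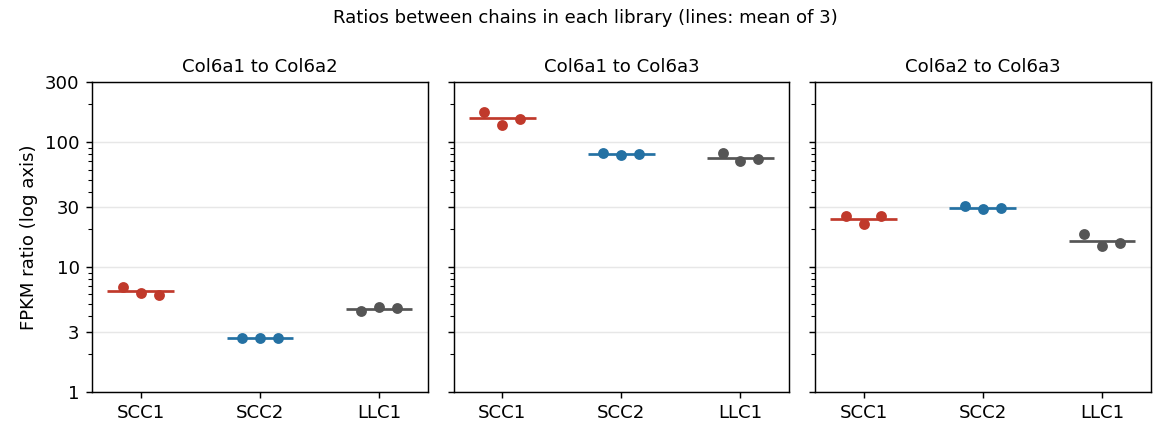
FPKM ratios between pairs of chains (log axis) in each library of SCC1, SCC2 and LLC1; points are libraries and lines are means of 3. Col6a1 to Col6a2 separates the lines, at means of 6.35, 2.69 and 4.63 for SCC1, SCC2 and LLC1, while Col6a1 to Col6a3 is raised in SCC1 (mean 155) and overlaps between SCC2 and LLC1.

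The size of these ratios, but not their order over the lines, depends on the gene lengths behind the FPKM. The deposited values imply lengths of 3980 bases for Col6a1, 6020 for Col6a2 and 10851 for Col6a3. The principal transcripts in GENCODE M21 have 4100, 3949 and 9001 bases and the merged exons 4380, 8326 and 11963. Fragments divided by principal transcript length gave Col6a1 to Col6a2 ratios of 4.04 ± 0.283 in SCC1, 1.71 ± 0.0133 in SCC2 and 2.95 ± 0.116 in LLC1. The same for Col6a1 to Col6a3 was 124 ± 14.5 in SCC1, 64.4 ± 1.15 in SCC2 and 60.2 ± 4.90 in LLC1, so Col6a3 remained far below Col6a1.

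The 3 chains summed to 35.6 ± 1.35 FPKM in SCC1, 172 ± 1.54 FPKM in SCC2 and 106 ± 0.357 FPKM in LLC1. They made up 5.22% ± 0.242 of the FPKM of all collagen chain genes in SCC1, 12.1% ± 0.110 in SCC2 and 8.08% ± 0.0916 in LLC1. Of 33 other collagen chains, 10 could be tested with limma (adjusted p under 0.05 over all genes tested). In SCC1 against LLC1 all 10 were lower (median log2 change -0.94, against 0.03 for all tested genes, of which 30.9% were lower and 39.2% higher). In SCC2 against LLC1 3 were higher and 5 lower (median -0.09, against 0.01), with 34.7% of all genes higher and 32.9% lower. In SCC2 against SCC1 7 were higher and 3 lower (median 0.79, against -0.00285), with 37.0% of all genes higher and 39.4% lower. Col3a1, the fibrillar collagen III chain and the most abundant collagen here, had 257 ± 5.00 FPKM in SCC1, 699 ± 12 FPKM in SCC2 and 575 ± 13.1 FPKM in LLC1, the same order as collagen VI. Col3a1 is also a fibroblast marker, and the 7 of 9 such markers with values summed to 260 to 270 FPKM in SCC1, 719 to 740 FPKM in SCC2 and 576 to 602 FPKM in LLC1, of which Col3a1 made up most. Dpt, dermatopontin, another of these markers, had means of 4.12 FPKM in SCC1, 29.8 FPKM in SCC2 and 6.70 FPKM in LLC1. Other fibroblast markers had another order: means of Pdgfra were 3.35 FPKM in SCC1, 3.04 FPKM in SCC2 and 5.18 FPKM in LLC1, and those of Pdgfrb were 0.397, 0.145 and 0.714 FPKM in the same lines. The epithelial markers Krt8 and Krt18 ran opposite to the collagen VI chains, higher in SCC1 (log2 changes 0.46 and 0.40) and lower in SCC2 (-0.58 and -0.51) than in LLC1. Krt19, of the same list, was low, with means of 1.27 FPKM in SCC1, 0.333 FPKM in SCC2 and 1.40 FPKM in LLC1. Of the leukocyte markers, Cd68 had means of 9.14 FPKM in SCC1, 3.05 FPKM in SCC2 and 4.11 FPKM in LLC1, and Ly6g had means of 1.14 FPKM in SCC1, 0 FPKM in SCC2 and 0.0208 FPKM in LLC1. The part of other cells in the collagen levels was not tested.

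Chromosome 10, which holds Col6a1 and Col6a2, had lower values in SCC1 as a whole. Of 521 tested genes of chromosome 10, 73 had a positive log2 change in SCC1 against LLC1 and the median was -0.19, whereas on chromosome 1 the median of 592 genes was 0.06. In SCC2 against LLC1 the medians were 0.10 on chromosome 10 and 0.14 on chromosome 1. With the chromosome's median subtracted, the log2 change in SCC1 was -1.28 for Col6a1, -1.57 for Col6a2 and -0.91 for Col6a3, and in SCC2 it was 0.42, 1.16 and 0.10. The part of the chromosome in these changes was not tested further. For Col6a3 in SCC2, 0.10 stands in place of 0.24. The Col6a1 to Col6a2 ratio compares genes of a single chromosome.

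Around Col6a1 and Col6a2, the 5 nearest genes with values on each side were examined, of which 7 were tested. All 7 were lower in SCC1 against LLC1 (30.9% of all genes were), by log2 changes of -0.10 to -0.60, smaller than those of either collagen gene. Lower values were common on chromosome 10, where 73 of 521 tested genes had a positive change and the median was -0.19. Whether the neighbours differ from the rest of the chromosome was not tested. Pcbp3, which encodes an RNA-binding protein and is the nearest gene beyond Col6a1, had 3.99 ± 0.437 FPKM in SCC1, 5.66 ± 0.0879 FPKM in SCC2 and 6.56 ± 0.510 FPKM in LLC1. Lss, the lanosterol synthase gene on the side of Col6a2, had 10.4 ± 0.176 FPKM in SCC1, 14.3 ± 0.376 FPKM in SCC2 and 16.1 ± 0.30 FPKM in LLC1. In SCC2 against LLC1, 2 of the 7 were higher, Slc19a1 (the reduced folate carrier, log2 change 0.47) and Pofut2 (a protein O-fucosyltransferase, 0.16), and 3 were lower, including Pcbp3 and Lss, where 34.7% of all genes were higher and 32.9% lower. Col18a1, another collagen gene of this stretch, was lower in both clones, with 112 ± 1.20 FPKM in SCC1, 75.2 ± 1.16 FPKM in SCC2 and 149 ± 1.28 FPKM in LLC1. Around Col6a3 5 of 10 neighbours were tested: 1 was higher and 2 were lower in SCC1, and 3 were higher and 0 lower in SCC2, each against LLC1. Of all genes 39.2% were higher and 30.9% lower in SCC1, and 34.7% were higher and 32.9% lower in SCC2. The largest of these changes in size was that of Lrrfip1 (0.39 in SCC1).

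**Figure D3:**
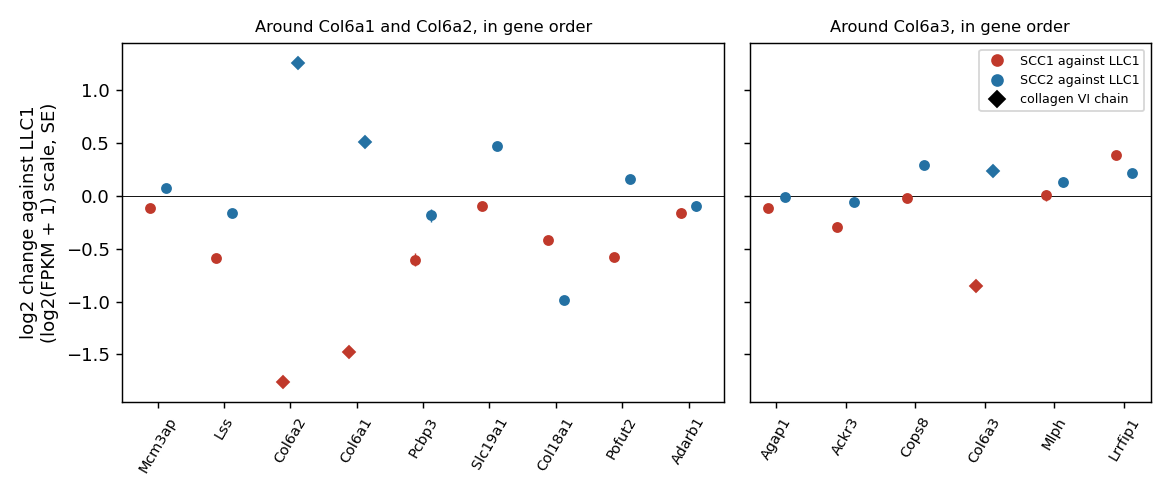
log2 change against LLC1 (log2(FPKM + 1) scale, bars SE) of collagen VI genes (diamonds) and tested neighbours (circles), left to right in gene order, for SCC1 and SCC2. Col6a1 and Col6a2 lie below all 7 neighbours in SCC1 and above all of them in SCC2, where Slc19a1 at 0.47 is the closest to Col6a1 at 0.51.

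Collagen VI is made, bound and cleaved by other proteins, and 66 such genes in 4 lists were compared between lines, of which 45 could be tested. In SCC1 against LLC1, 38 of the 45 were lower and 4 higher at a limma adjusted p under 0.05, where 30.9% of all tested genes were lower and 39.2% higher (70.1% either way). In SCC2 against LLC1, 18 were higher and 14 lower, close to the 34.7% and 32.9% of all genes (67.6% either way). In SCC2 against SCC1, 37 were higher and 5 lower, against 37.0% and 39.4% of all genes (76.3% either way). The median log2 changes of the 45 were -0.36, 0.02 and 0.30 in these comparisons. The first pair of comparisons shares the LLC1 libraries, so their results are not independent. Tested genes also recur between counts. Col4a1 and Col4a2 are among these partners and among the other collagen chains, and Col18a1 is among those chains and the neighbours of Col6a1.

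Among 23 tested genes of collagen folding, modification and export, 20 were lower and 2 higher in SCC1 against LLC1 (median -0.41). In SCC2 against LLC1, 11 were higher and 4 lower (median 0.05). Of all tested genes 30.9% were lower and 39.2% higher in SCC1, and 34.7% were higher and 32.9% lower in SCC2. Plod1, a lysyl hydroxylase of collagens, had the largest fall, with 17.7 ± 0.850 FPKM in SCC1 and 84.5 ± 2.89 FPKM in LLC1 (log2 change -2.19, SE 0.0356, limma adjusted p = 1.77e-12). It was lower in SCC2 as well, at 54.2 ± 1.39 FPKM (limma adjusted p = 3.18e-08), unlike the collagen VI chains. Serpinh1, the collagen chaperone HSP47, had 241 ± 0.790 FPKM in SCC1, 408 ± 1.83 FPKM in SCC2 and 347 ± 6.80 FPKM in LLC1. P4ha1, a catalytic subunit of prolyl 4-hydroxylase, had 66.1 ± 0.725 FPKM in SCC1, 109 ± 0.898 FPKM in SCC2 and 99.8 ± 1.01 FPKM in LLC1. Both were lower in SCC1 and higher in SCC2 than in LLC1, as was P4hb, the disulfide isomerase subunit of the same enzyme, by smaller changes of -0.09 and 0.13. Sparc, a collagen-binding glycoprotein, was lower in both clones, at 69.2 ± 0.816 FPKM in SCC1, 122 ± 0.183 FPKM in SCC2 and 183 ± 2.64 FPKM in LLC1.

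Of 16 matrix binding partners with values, 9 had a mean under 1 FPKM in every line, among them Matn1, Matn3, Matn4, Lum and Tnxb, and 7 were tested. In SCC1 6 were lower and 1 higher than in LLC1 (median -0.61), and in SCC2 2 were higher and 2 lower (median 0.02). The shares among all tested genes were 30.9% lower and 39.2% higher in SCC1, and 34.7% higher and 32.9% lower in SCC2. Hspg2, the basement membrane proteoglycan perlecan, had 63.5 ± 1.14 FPKM in SCC1, 161 ± 4.35 FPKM in SCC2 and 153 ± 4.05 FPKM in LLC1. Its fall in SCC1 (log2 change -1.25) was the largest of the list, while its change of 0.08 in SCC2 was not called with quantile normalization (0.05), nor without SCC2 replicate 1 (0.06), LLC1 replicate 1 (0.07) or LLC1 replicate 2 (0.06). The collagen IV chain Col4a2 had 69.8 ± 0.836 FPKM in SCC1, 118 ± 1.03 FPKM in SCC2 and 117 ± 0.755 FPKM in LLC1, and Col4a1 had 129 ± 2.48, 208 ± 3.02 and 211 ± 1.5 FPKM in the same lines. Fibronectin, Fn1, had 310 ± 0.979 FPKM in SCC1, 335 ± 4.24 FPKM in SCC2 and 449 ± 1.25 FPKM in LLC1, and was lower in both clones.

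The small proteoglycans biglycan and decorin bind collagen VI and organise its microfibrils. Bgn had 364 ± 9.35 FPKM in SCC1, 359 ± 5.62 FPKM in SCC2 and 323 ± 6.52 FPKM in LLC1 and was higher in both clones (log2 changes 0.17 and 0.15, limma adjusted p = 2.88e-05 and 7.98e-05). It was the exception among the tested partners of this list in SCC1. Dcn was low, at 2.34 ± 0.0821 FPKM in SCC1, 2.10 ± 0.383 FPKM in SCC2 and 3.02 ± 0.495 FPKM in LLC1. Its call in SCC1 (limma adjusted p = 0.0286) was lost without SCC1 replicate 1 (log2 change -0.26), SCC1 replicate 2 (-0.24) or LLC1 replicate 1 (-0.16), with no filter on low values and with quantile normalization.

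Receptors for collagen VI or related collagens include integrins and receptor kinases. Of 10 tested receptors, 7 were lower and 1 higher in SCC1 against LLC1 (median -0.32), and 4 were higher and 6 lower in SCC2 against LLC1 (median -0.18). For all tested genes the shares were 30.9% lower and 39.2% higher in SCC1, and 34.7% higher and 32.9% lower in SCC2. Itgb1, the integrin β1 subunit shared by the collagen-binding integrins, had 110 ± 0.418 FPKM in SCC1, 177 ± 0.843 FPKM in SCC2 and 148 ± 0.847 FPKM in LLC1. Ddr2, a receptor tyrosine kinase for collagens, had 49.7 ± 0.128 FPKM in SCC1, 88.4 ± 0.745 FPKM in SCC2 and 65.3 ± 0.390 FPKM in LLC1. Its relative Ddr1 was higher in SCC1 and lower in SCC2 than in LLC1, with 13.6 ± 0.184 FPKM in SCC1, 8.24 ± 0.168 FPKM in SCC2 and 12.3 ± 0.558 FPKM in LLC1. Itga3, a laminin-binding integrin subunit, had 43.3 ± 1.52 FPKM in SCC1 and 45.2 ± 2.36 FPKM in LLC1 (log2 change -0.06, limma adjusted p = 0.203) but 15.5 ± 0.412 FPKM in SCC2 (log2 change -1.48, limma adjusted p = 8.07e-11). The small change of Itga3 in SCC1 was called lower with quantile normalization (-0.09), with limma-voom (-0.07) and without LLC1 replicate 1 (-0.10).

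The anthrax toxin receptors bind collagen VI. Antxr2 had 27.4 ± 0.484 FPKM in SCC1, 23.1 ± 0.935 FPKM in SCC2 and 29.7 ± 1.29 FPKM in LLC1, and it was lower in SCC2 than in SCC1 (log2 change -0.23, limma adjusted p = 9.03e-05). Antxr1, which binds the C-terminal end of α3, had 5.10 ± 0.226 FPKM in SCC1, 5.99 ± 0.165 FPKM in SCC2 and 6.60 ± 0.185 FPKM in LLC1. Its log2 change in SCC2 against LLC1 was -0.12, and the call was lost without SCC2 replicate 1, SCC2 replicate 2 or LLC1 replicate 3 (-0.10 to -0.11). That of Antxr2 in SCC1 against LLC1 was -0.11, and the call was lost without SCC1 replicate 2 or LLC1 replicate 3 (-0.10 and -0.08). Cspg4, the proteoglycan NG2 that binds α2, had at most 0.0205 FPKM in any library.

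Of the proteases, 5 were tested, all lower in SCC1 against LLC1 (median -0.29), with 1 higher and 2 lower in SCC2 against LLC1. Among all tested genes 30.9% were lower in SCC1, and 34.7% were higher and 32.9% lower in SCC2. Mmp14, the membrane-bound collagenase, had 65.2 ± 0.857 FPKM in SCC1, 84.9 ± 0.387 FPKM in SCC2 and 82.9 ± 0.431 FPKM in LLC1. Bmp1, the procollagen C-proteinase, had 94.3 ± 1.02 FPKM in SCC1, 108 ± 1.25 FPKM in SCC2 and 116 ± 0.322 FPKM in LLC1, and its enhancer Pcolce had 399 ± 8.26, 482 ± 1.95 and 474 ± 5.54 FPKM in the same lines. Mmp11, which cleaves α3 in mouse fat tissue, had 12.1 ± 0.346 FPKM in SCC1, 11.9 ± 0.628 FPKM in SCC2 and 15.4 ± 0.0996 FPKM in LLC1, and was lower in both clones. Furin, a proprotein convertase, had 24.3 ± 0.455 FPKM in SCC1, 30.2 ± 0.794 FPKM in SCC2 and 27.1 ± 0.407 FPKM in LLC1, lower in SCC1 and higher in SCC2.

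**Figure D4:**
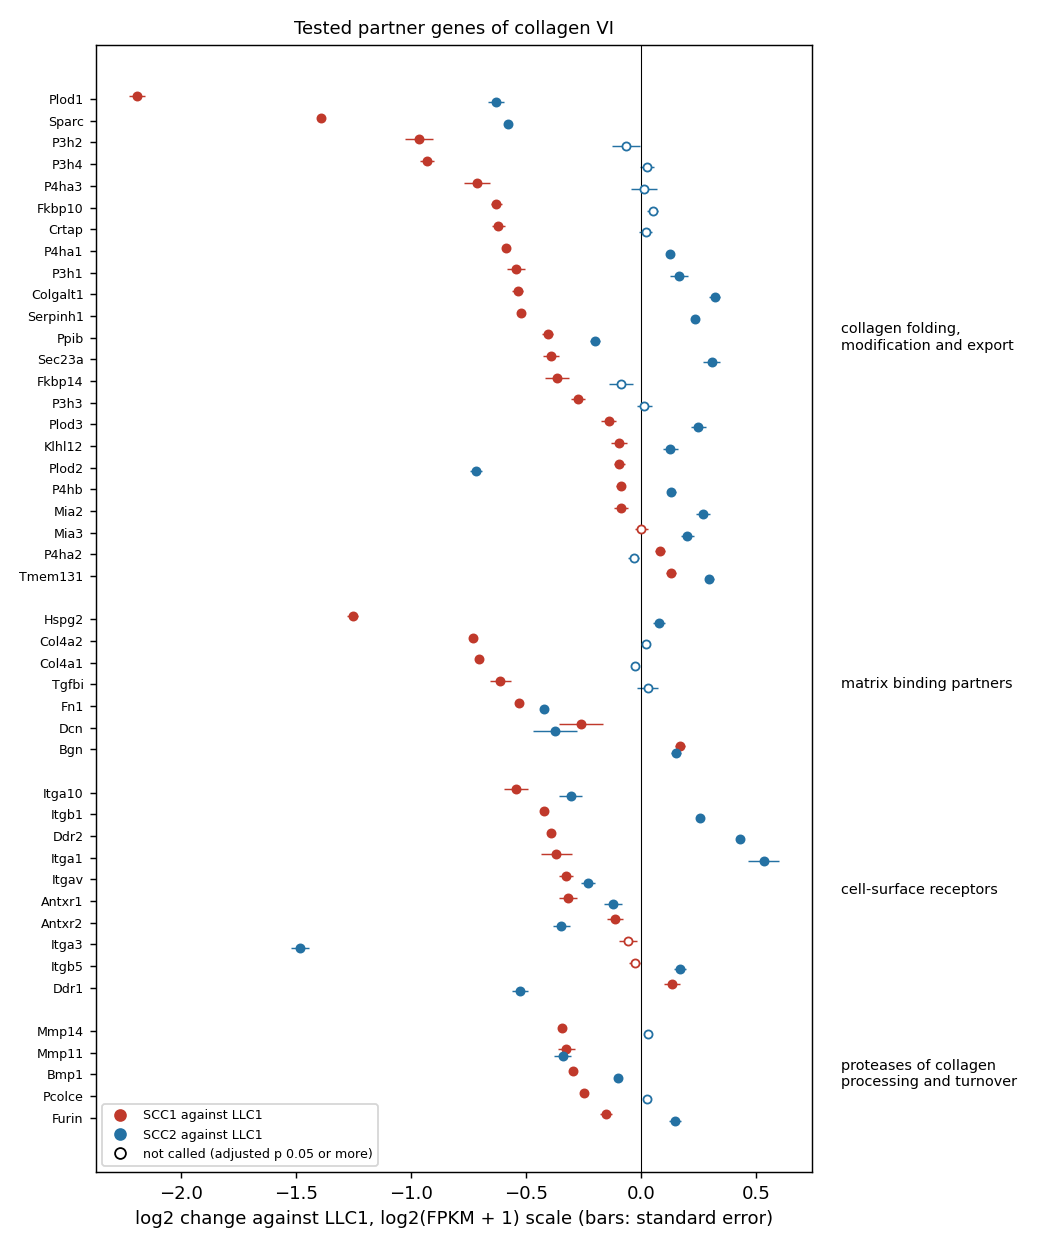
log2 change against LLC1 (log2(FPKM + 1) scale, bars SE) of the 45 tested partner genes in 4 lists, for SCC1 and SCC2; open points did not pass a limma adjusted p of 0.05. Of the SCC1 points 38 are filled left of 0 and 4 right of it, while of the SCC2 points 14 are filled left of 0 and 18 right of it.

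The genes whose profile over the 9 libraries lay nearest to the mean of the 3 chains were found among 7741 other genes with a mean of at least 5 FPKM. Nearness was the root mean square distance of log2(FPKM + 1) less the LLC1 mean. On this scale the added 1 compresses the change of Col6a3 in SCC1 to -0.85, against a plain log2 ratio of means of -2.55. A pseudocount of 0.1 moved the mean change of the chains in SCC1 against LLC1 from -1.36 to -1.84. The ranking was not repeated with it, so the order, including which gene is nearest, holds for this scale only. On it the mean of the chains changed by -1.36 in SCC1 and 0.67 in SCC2 against LLC1. Col6a1 changed by -1.47 and 0.51, Col6a2 by -1.76 and 1.26, and Col6a3 by -0.85 and 0.24. Distances of the single chains from their mean were not computed, so nearness to the mean is not nearness to each chain. The nearest was Slc6a9, the glycine transporter GLYT1, at a distance of 0.105 (Pearson r of 0.998 over 9 libraries, which fall into 3 lines). It had 6.89 ± 0.399 FPKM in SCC1, 26.5 ± 0.680 FPKM in SCC2 and 17.7 ± 0.825 FPKM in LLC1. Next came Thbs1, the matricellular protein thrombospondin 1 (distance 0.208), with 3.71 ± 0.166 FPKM in SCC1, 25.8 ± 0.884 FPKM in SCC2 and 12.6 ± 0.335 FPKM in LLC1. They were followed by Nrp2, a semaphorin and VEGF coreceptor (0.224), Kdelr3, a retrieval receptor for endoplasmic reticulum proteins (0.231), Clic4, an intracellular chloride channel protein (0.234), and Nupr1, a stress-induced nuclear protein (0.245). These 6 were picked for their likeness, so their levels are a description.

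**Figure D5:**
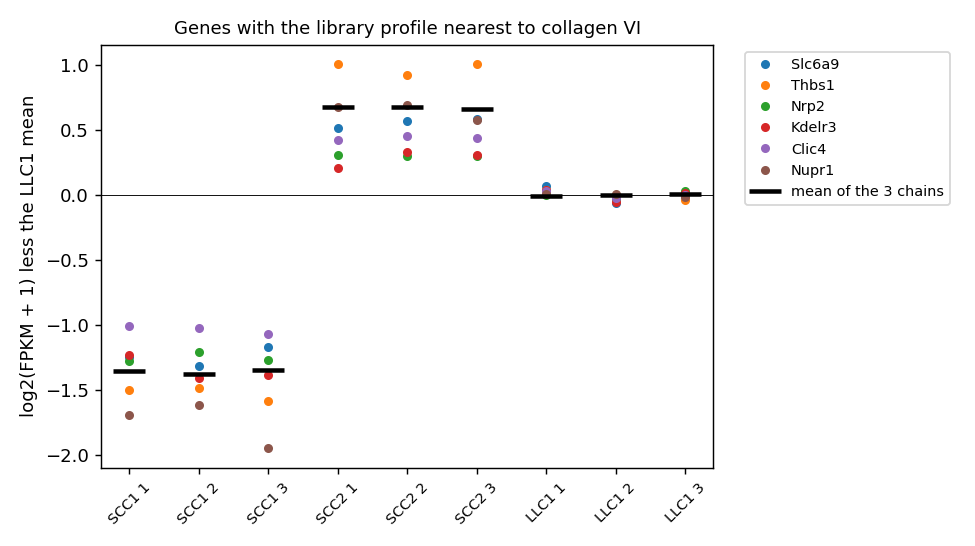
log2(FPKM + 1) less the LLC1 mean (vertical axis) in the 9 libraries for the mean of the 3 collagen VI chains (black bars) and for the 6 genes nearest to that mean (points). All 6 genes lie below 0 in the SCC1 libraries and above 0 in the SCC2 libraries, with Thbs1 highest in SCC2 and Nupr1 lowest in SCC1.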

How the data were processed

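RNA of 9 libraries, 3 each of SCC1, SCC2 and LLC1, was sequenced as 150 bp paired ends on RNA of integrity number 7 or more. The deposited values are FPKM, which the authors computed with cufflinks after Trimmomatic and hisat2, per the series' design text in the labels. The submitters' processing notes name the builds GRCm38 and mm10; for tool versions, annotation and strand the sources used here give nothing. Labels and design text name different extraction and library kits. FPKM is relative to a library's other RNA.

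Since the authors' FPKM rest on counted fragments, low values are spaced evenly. For all 12270 genes above 0 in every library, whole fragments came back within 0.001 fragments, up to a factor common to a gene, and the smallest whole numbers were used. Pairs of libraries of 1 line gave a chi-square of 1.19 to 1.69 per gene where counting alone gives 1, so none was taken for a library deposited again; this does not show separate cultures. Genes with at least 1 FPKM in at least 3 libraries (10519) were tested on log2(FPKM + 1), pseudocount 1, with limma 3.58.1 in R 4.3.3 (trend and robust), all 9 libraries in 1 fit, two-sided, with Benjamini-Hochberg adjustment over these genes and a threshold of 0.05. The rest used Python 3.11.15 with matplotlib 3.10.9, scipy 1.17.1, pandas 2.3.3 and numpy 2.4.6. The fit and the recovery of fragments were tested on simulated data.

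The members, the partner lists and the markers were chosen with earlier results of these data known, and the lists have no published source. Named partners were the 4 of each list with the smallest adjusted p and a set of fixed genes, some in both. Of 15768 symbols 15665 matched RefSeq. A marker gene of the leukocyte list is not reported here.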

Additional observations from a re-analysis of the deposited data

Results flagged for a closer look

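Against the same LLC1 libraries, the collagen VI chains of the SCC1 libraries all lay lower and those of the SCC2 libraries all higher. On the log2(FPKM + 1) scale the gap of SCC2 over SCC1 was 1.99 for Col6a1, 3.02 for Col6a2 and 1.09 for Col6a3. The order of the chains depends on the pseudocount: at 0.1 the gaps were 2.02 for Col6a1, 3.23 for Col6a2 and 2.47 for Col6a3, and with limma-voom on recovered fragments they were 2.03, 3.27 and 2.96. These gaps were not tested, since the genes were chosen from these values. Of 22 tested partner genes named by the rule, which favours small adjusted p, 8 passed limma in opposite directions in the clones and also passed in SCC2 against SCC1. So did 15 of all 45 tested partner genes (33.3%) and 22.4% of all tested genes. These comparisons share libraries, so a gene called in opposite directions against LLC1 is nearly bound to pass between the clones. The log2 change of SCC2 over SCC1 was 0.75 for Serpinh1, 0.71 for P4ha1, 0.22 for P4hb, 1.33 for Hspg2, 0.82 for Ddr2, 0.68 for Itgb1 and 0.30 for Furin, and it was -0.66 for Ddr1, the only one of the 8 that was higher in SCC1. The change of Hspg2 in SCC2 against LLC1 did not pass in 4 of the alternatives. In SCC2 against SCC1 76.3% of all tested genes passed.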

How the results depend on the processing

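The signs of all 3 chains' changes held in every fit that tested them; a filter at 5 FPKM left Col6a3 out. The mean log2 change of the chains was -1.36 in SCC1 against LLC1, 0.67 in SCC2 against LLC1 and 2.03 in SCC2 against SCC1. With a pseudocount of 0.1 it was -1.84, 0.73 and 2.57, and with limma-voom on recovered fragments -2.01, 0.74 and 2.75. With chromosome medians removed, chosen after seeing the data, it was -1.25, 0.56 and 1.82, and quantile normalization gave 0.69 in SCC2 against LLC1. With each library left out in turn it ran from -1.37 to -1.35, from 0.67 to 0.68 and from 2.02 to 2.04. GENCODE lengths, also chosen after seeing the data, moved the ratios. For SCC1, SCC2 and LLC1, Col6a1 to Col6a2 was 4.04, 1.71 and 2.95 with principal transcripts and 7.98, 3.38 and 5.82 with merged exons. Col6a2 to Col6a3 was 30.8, 37.6 and 20.5 with principal transcripts and 19.4, 23.7 and 12.9 with merged exons, and Col6a1 to Col6a3 was 124, 64.4 and 60.2 with principal transcripts. With no filter on low values 9 partner genes were lower in SCC2 against SCC1, in place of 5, and 38 higher, in place of 37. In SCC2 against LLC1 21 were then lower, in place of 14, and 19 higher, in place of 18. In SCC1 against LLC1 43 were lower, in place of 38, and 5 higher, in place of 4. The change of Fn1 in SCC2 against SCC1 turned to -0.00242 with quantile normalization, and the cause was not tested. Of 1119 alternatives for single genes, 1098 kept direction and call, 14 lost and 6 gained a call. Genes called with a library left out numbered 6883 to 7323, 6680 to 7103 and 7670 to 8029, in place of 7376, 7112 and 8031. With the replicate number as a block they were 7306, 7046 and 7962, and no partner count moved. Deviations from the line means correlated at -0.0683 to 0.0890 between same-numbered libraries, so no shared effect of the number was seen. Whether same-numbered libraries were prepared together cannot be told from this. Of the chains, depth limits Col6a3 in SCC1 most, at 39 to 43 fragments per library.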
